A study of Mus musculus with 4 samples.

Results

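The genes described here are the variable (V) and constant (C) genes of the mouse T cell receptor, measured by RNA sequencing of Th17 cells. They were chosen as genes whose GENCODE symbol starts with Trav, Trbv, Trgv, Trdv, Trac, Trbc, Trgc, Trdc or Tcrg-C and whose annotated type is a T cell receptor V gene, V pseudogene or C gene. The choice was made with earlier results of these data known, but its rule used names and types and no measured value. It gave 178 of the 50600 genes counted. They comprised 128 Trav, 35 Trbv, 6 Trdv and 1 Trgv gene and 8 constant genes (Trac, Trbc1, Trbc2, Trdc and Tcrg-C1 to Tcrg-C4), and 34 of the 170 V genes are annotated as pseudogenes.

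The study has 1 group, primary Th17 cells of strain C57BL/6NJ, in 4 libraries numbered as biological replicates 1 to 4. No treatment, genotype or second cell type is compared, and the labels name no age, give sex as not collected and link a protocol for differentiating CD4+ T cells in culture. The labels give 1 donor identifier for all 4 libraries and do not say whether they came from separate animals or cultures. Every SD below therefore measures the spread between these libraries, and every p-value treats the 4 libraries as independent, which the labels do not establish. In mice, Xist is made from the inactive X chromosome and Ddx3y lies on the Y chromosome: Xist stood at 177 and 193 TPM in replicates 1 and 2 and at 2.15 and 0.598 TPM in replicates 3 and 4, and Ddx3y at 0.165 and 0.133 TPM in replicates 1 and 2 and at 59.7 and 55.2 TPM in replicates 3 and 4. The libraries thus fall into pairs that differ in sex-linked RNA, a difference that libraries of a single animal would not show. The spread between the libraries therefore includes this difference between pairs, while within a pair it may be technical. TPM is a level per length, with each gene's counts divided by its exonic length and scaled so that every library sums to 1000000. The labelled cell type was checked on its defining genes: the cytokines Il17a and Il17f stood at 6741 to 8361 and 10550 to 12387 TPM, and neither was absent. Il23r and Ccr6, receptors found on Th17 cells, stood at 76.1 to 88.8 and 161 to 184 TPM, while Tbx21, Gata3 and Foxp3, transcription factors of other helper and regulatory T cells, stood at 15.3 to 22.4, 2.12 to 4.56 and 0.200 to 1.85 TPM. The libraries held 34542693, 23673174, 9382661 and 28629187 counts in replicates 1 to 4, so that replicate 3 gives the least precise value of every gene.

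A T cell receptor is a pair of chains, alpha with beta or gamma with delta, and each chain joins a variable part, which contacts the antigen, to a constant part, which anchors it in the membrane. During development in the thymus the RAG recombinase cuts the DNA and joins 1 V segment, a joining (J) segment and, in beta and delta chains, a diversity (D) segment. The spliced RNA then carries that V segment followed by the constant gene. Conventional CD4+ T cells, from which Th17 cells arise, carry alpha-beta receptors, and a population that uses many V segments is called polyclonal. Bulk RNA cannot tell fewer cells with a V gene from less RNA in each such cell.

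The members took 0.0821%, 0.0803%, 0.0711% and 0.0900% of the counts in replicates 1 to 4. Of the 178 members, 109 had a count and 69 had none in any library. In a library, a count of 0 allows up to 3 counts, and this limit covers counting error only. The V genes held 18618 counts over the 4 libraries, and V pseudogenes held 63 of them, 0.338%.

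The constant genes of the alpha and beta chains were among the most abundant genes of the cells. Trac, the only alpha constant gene (mm10 chromosome 14, 54220521 to 54224206, plus strand), stood at 1086, 999, 929 and 1152 TPM in replicates 1 to 4, a mean of 1041 ± 97.7 TPM (SD, n = 4). Its level ranked 98th of the 50600 genes. Trbc2, the second beta constant gene (chromosome 6, 41546730 to 41548352, plus strand), stood at 788, 824, 689 and 940 TPM, a mean of 810 ± 104. Trbc1, the first (chromosome 6, 41538218 to 41539881, plus strand), stood at 663, 673, 576 and 728 TPM, a mean of 660 ± 62.7. All 3 were lowest in replicate 3 and highest in replicate 4.

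**Figure D1:**
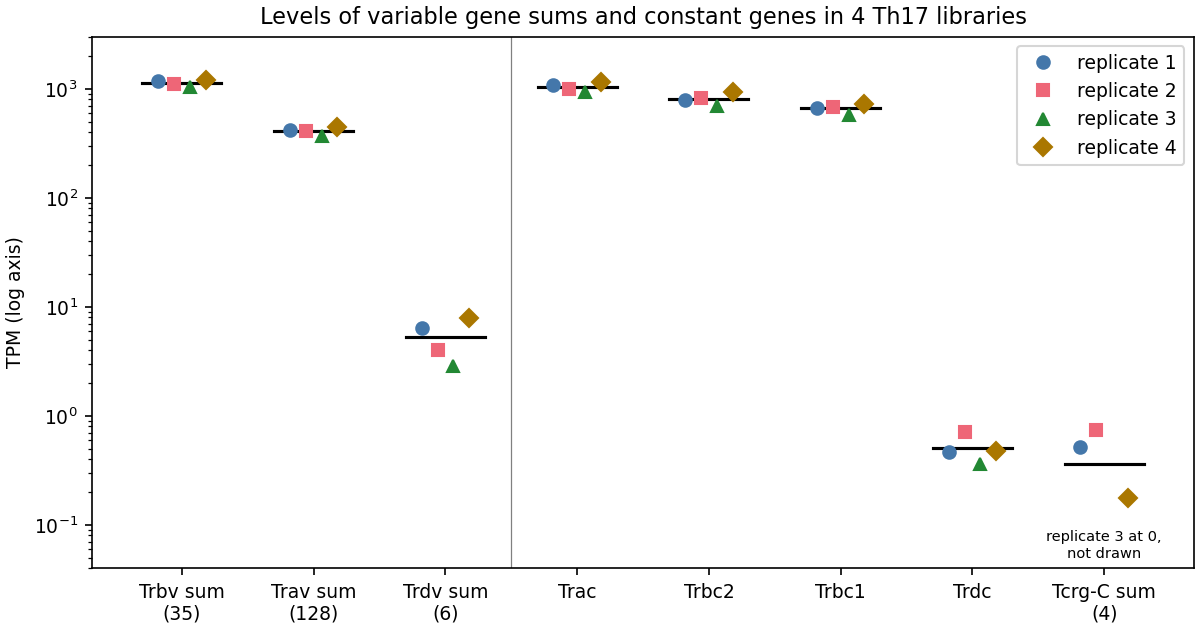
Levels in TPM (log axis) of the summed V genes of each chain (left of the line, with the number of genes) and of the constant genes (right of it) in 4 Th17 libraries, 1 point a library and a bar at the mean. Trac, Trbc2 and Trbc1 lie between 576 and 1152 TPM, while Trdc and the summed Tcrg-C genes lie below 0.75 TPM, with replicate 3 at 0 for Tcrg-C and not drawn.

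The beta constant genes are near copies, and each beta chain uses one of them, since each has its own D and J segments. Their coding sequences were aligned over 518 bases and were identical at 95.6% of them, with an unbroken identical run of 259 bases. Of the 23 bases that differ, 14 lie within the 90 bases shown here, bases 400 to 489 of each transcript (GENCODE release 21), because read pairs can be assigned to one gene through such stretches. Capitals mark the bases that differ between the genes.
Trbc2: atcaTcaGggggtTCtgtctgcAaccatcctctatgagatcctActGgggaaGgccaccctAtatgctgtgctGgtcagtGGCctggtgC
Trbc1: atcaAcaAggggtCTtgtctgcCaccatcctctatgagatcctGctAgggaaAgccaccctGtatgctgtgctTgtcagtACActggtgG

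Trbc2 was higher than Trbc1 in 4 of 4 libraries. The ratio of Trbc2 to Trbc1 was 1.19, 1.22, 1.20 and 1.29 in replicates 1 to 4, and Trbc2 made up 55.0 ± 0.935% of both. The log2 difference, on the log2(TPM + 1) scale, was 0.29 ± 0.055 (SD, n = 4). An exact sign-flip permutation test over the libraries (both tails) gave p = 0.13, the smallest that 4 libraries allow, and Benjamini-Hochberg adjustment over the 6 contrasts tested left it at 0.13. No contrast can therefore pass 0.05 here. The 2 genes had 56.0% and 58.9% of their 50-base windows in no other transcript for Trbc2 and Trbc1, and counts per such window gave a log2 difference of 0.35, also above 0 in the mean.

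Trac was lower than the sum of Trbc1 and Trbc2 in 4 of 4 libraries. Trac stood at 1041 ± 97.7 TPM and the summed Trbc genes at 1470 ± 166 TPM, a log2 difference of -0.50 ± 0.076 (exact sign-flip p = 0.13, adjusted 0.13). Per unique window the difference was -1.33, and per count with no length scaling it was -0.11, so its size depends on how the level is scaled while its direction did not.

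The constant genes of the gamma and delta chains were close to absent. Trdc, the delta constant gene, which lies between the Trav genes and Trac, had 19, 20, 4 and 16 counts in replicates 1 to 4, or 0.505 ± 0.149 TPM. The 4 gamma constant genes together had 5, 5, 0 and 1 counts, 9 of them in Tcrg-C1, 1 in Tcrg-C2, 1 in Tcrg-C3 and none in Tcrg-C4. Tcrg-C2 and Tcrg-C3 are 96.1% and 97.2% identical to Tcrg-C1 over their aligned transcripts, so pairs from these genes may also have gone uncounted. On the log2(TPM + 1) scale Trac stood 9.44 ± 0.18 above Trdc and the summed Trbc genes 10.11 ± 0.34 above the summed Tcrg-C genes, each in 4 of 4 libraries (exact sign-flip p = 0.13 for each, adjusted 0.13). With a pseudocount of 0.01 these differences were 11.02 and 13.11.

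V genes of the gamma and delta chains were also low, but the 6 Trdv genes summed to 5.29 ± 2.26 TPM, above Trdc at 0.505 ± 0.149 TPM. Trgv2 had no count in any library, and 6 further gamma V genes, which carry the older prefix Tcrg-V and lie outside the choice of genes, had none either. The 6 Trdv genes had 23, 10, 3 and 24 counts, and Trdv1 held 52 of these 60. Trdv1, which lies among the last Trav genes, stood at 6.22, 3.69, 1.04 and 6.77 TPM in replicates 1 to 4 and was lowest in the shallowest library, where it had 1 count. The remaining Trdv genes had at most 5 counts each, and Trdv5, which had 5, overlaps the end of Trdc on the opposite strand. Of 8 marker genes of gamma-delta T cells (Trdc, Tcrg-C1, Tcrg-C2, Tcrg-C4, Sox13, Cd163l1, Blk and Tcrg-V6), 0 reached 1 TPM in every library, Tcrg-V6 and Tcrg-C4 were at 0, and their sum ran from 0.444 to 1.65 TPM.

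Summed V gene RNA was higher for the beta than for the alpha chain. The 35 Trbv genes summed to 1187, 1115, 1028 and 1215 TPM in replicates 1 to 4, and the 128 Trav genes to 418, 410, 371 and 447 TPM. The ratio of Trbv to Trav was 2.76 ± 0.0562, a log2 difference of 1.46 ± 0.029, positive in 4 of 4 libraries (exact sign-flip p = 0.13, adjusted 0.13). Counts per window found in no other transcript gave a log2 difference of 0.50 ± 0.16, positive in the mean but smaller. Relative to its own constant genes, the Trbv sum was 0.776 ± 0.0458 of Trbc1 and Trbc2, and the Trav sum was 0.396 ± 0.0114 of Trac. The deposited counts leave out read pairs that map to several places and pairs that overlap more than 1 gene, which includes a pair reaching from a V gene into its constant gene. Both the V sums and the constant genes can lose pairs in this way, but not equally. All windows of Trac are found in no other transcript, against 56.0% for Trbc2 and 58.9% for Trbc1. No such window is present in 41 of the 128 Trav genes and in 1 of the 35 Trbv genes. The Trav sum may thus be too low relative to the Trbv sum and to Trac, by an amount that was not tested.

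All 22 Trbv genes annotated as V genes had counts, and 10 of the 13 Trbv pseudogenes had none. Trbv1 was the most used, at 11.9%, 14.5%, 10.96% and 11.03% of the Trbv sum per length in replicates 1 to 4, a mean of 12.1 ± 1.63% (SD, n = 4, 1731 counts in all). Trbv13-2 followed with 10.7%, 11.5%, 13.2% and 10.8%, a mean of 11.6 ± 1.17% (1293 counts). Trbv31 had 10.03%, 8.79%, 10.9% and 11.1%, a mean of 10.2 ± 1.07% (1449 counts). Trbv3 had 10.3%, 10.2%, 9.45% and 9.76%, a mean of 9.93 ± 0.394% (1557 counts). These 4 genes took 42.99%, 44.9%, 44.6% and 42.8% of the Trbv sum. Trbv1 and Trbv13-2 exceeded Trbv3 in every library with no overlap in range, while Trbv31 overlapped all 3 and Trbv1 overlapped Trbv13-2. Trbv1 led in replicates 1 and 2, Trbv13-2 in replicate 3 and Trbv31 in replicate 4.

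The last 48 bases of the annotated transcripts of 7 Trbv genes are printed to show the V gene end that enters the antigen-contacting loop. Capitals mark the codon of the conserved cysteine at the start of that loop, found as the first in-frame cysteine codon within the last 24 bases, which all 22 Trbv genes annotated as V genes have. The sequences are from GENCODE release 21 transcripts of chromosome 6, and the set holds the 5 most used genes and the remaining genes of the Trbv13 subgroup.
Trbv1: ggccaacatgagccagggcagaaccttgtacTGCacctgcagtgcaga
Trbv13-2: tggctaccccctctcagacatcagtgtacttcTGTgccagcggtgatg
Trbv31: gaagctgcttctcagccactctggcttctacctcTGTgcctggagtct
Trbv3: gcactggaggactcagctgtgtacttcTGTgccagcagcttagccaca
Trbv19: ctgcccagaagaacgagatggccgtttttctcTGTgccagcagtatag
Trbv13-3: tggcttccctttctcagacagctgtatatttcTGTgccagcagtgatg
Trbv13-1: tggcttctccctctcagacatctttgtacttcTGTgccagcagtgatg
The 3 Trbv13 genes share most of this stretch, and over the whole transcript Trbv13-2 is 90.6% identical to Trbv13-3 and 88.7% to Trbv13-1, yet over 99% of the windows of each are found in no other gene's transcript. Together they took 22.6 ± 0.834% of the Trbv sum, the highest share of any Trbv subgroup.

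A gap followed the leading genes. Trbv19 had 6.17%, 6.21%, 8.32% and 5.87% in replicates 1 to 4, and its highest value lay below the lowest value of Trbv3, so Trbv3 exceeded Trbv19 in 4 of 4 libraries. Trbv16 (6.60 ± 0.861%), Trbv15 (6.35 ± 0.670%), Trbv13-3 (5.57 ± 0.340%), Trbv13-1 (5.44 ± 0.668%), Trbv2 (4.63 ± 0.298%) and Trbv20 (3.87 ± 0.559%) came next, each overlapping the range of its neighbours. Among the 12 most used genes the only other gap without overlap stood between Trbv20, with at least 3.06% in every library, and Trbv12-2, with at most 2.63%. The same 10 Trbv genes were the 10 most used in every library.

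**Figure D2:**
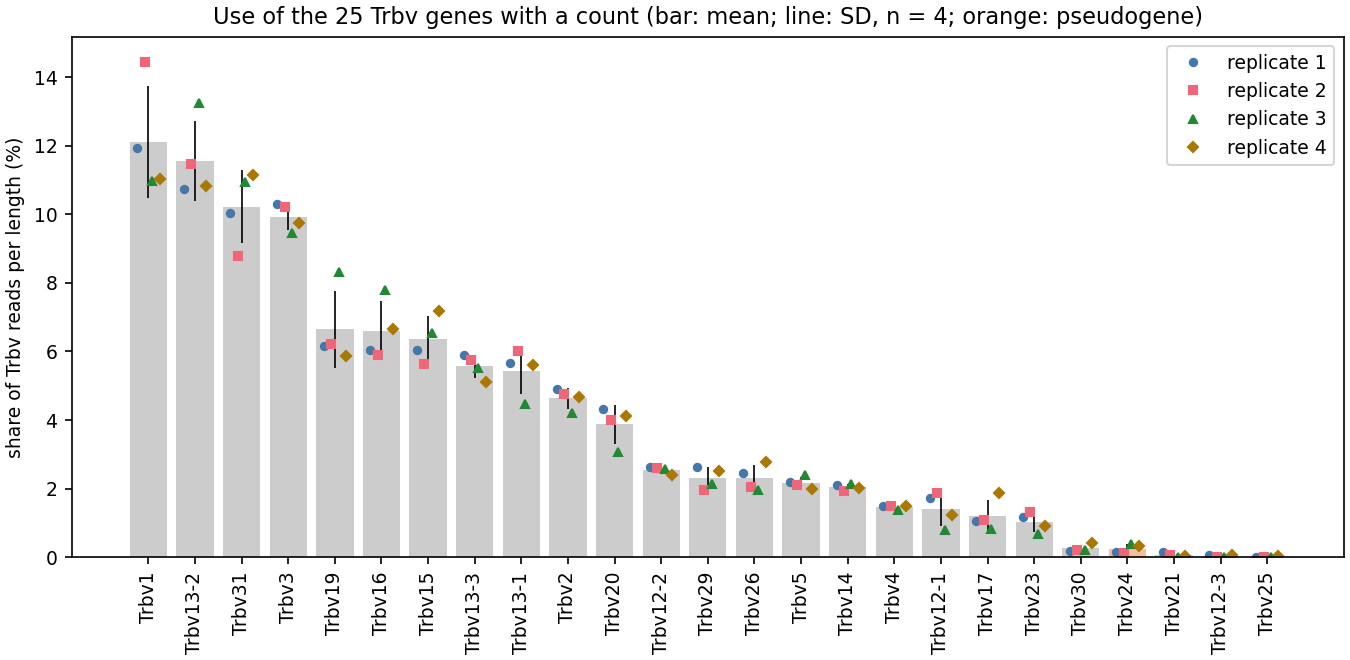
Share of each Trbv gene in the Trbv sum per length (%), for the 25 of 35 Trbv genes with a count, in order of the mean. Bars are means over 4 libraries, lines the SD, points the libraries, and orange bars pseudogenes; Trbv1, Trbv13-2, Trbv31 and Trbv3 stand above the rest, at means of 9.93% to 12.1%.

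At the low end, the 5 least used Trbv genes annotated as V genes were Trbv21, Trbv30, Trbv23, Trbv17 and Trbv12-1. Trbv21 had 7, 2, 0 and 1 counts in replicates 1 to 4, a mean share of 0.0590 ± 0.0643%, and its windows are all found in no other transcript. Trbv30 had 8, 6, 2 and 15 counts and a mean share of 0.259 ± 0.108%, so that Trbv1 was used 46.6 times as much. Trbv23 had 1.02 ± 0.276%, Trbv17 1.21 ± 0.463% and Trbv12-1 1.403 ± 0.493%. Trbv24, a pseudogene, had 26 counts in all and a mean share of 0.247 ± 0.134%, close to Trbv30. Trbv4 and Trbv5 (1.47% and 2.18%) overlap the long noncoding RNA gene 5830405F06Rik on the same strand and have 27.9% and 22.6% of their windows to themselves, so their shares are uncertain and may be too low.

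Trbv31 sits apart from the other Trbv genes, downstream of Trbc2 and on the minus strand (chromosome 6, 41557691 to 41558452), and is joined by inversion of the DNA. The other 21 Trbv genes annotated as V genes lie 256 to 646 kb upstream of Trbc1. Across these 21 genes, share and distance had a Spearman correlation of 0.44, with the farther genes used more. It was 0.57 across the 19 with at least 90% of their windows found in no other transcript. The points come from the same 4 libraries, and the correlation is a description over genes. Trbv1 is the farthest from the constant genes.

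Trav use was spread over more genes. Of the 128 Trav genes, 73 had a count. The 10 most used were Trav14n-3, Trav4-4-dv10, Trav14-3, Trav13-1, Trav14-2, Trav9-4, Trav17, Trav10, Trav7-5 and Trav14-1. Trav14n-3 had 89, 64, 28 and 81 counts in replicates 1 to 4, or 5.62%, 5.97%, 7.34% and 5.73% of the Trav sum per length, a mean of 6.16 ± 0.795%. Trav4-4-dv10, whose suffix marks a gene that can also join the delta chain, had 100, 49, 23 and 89 counts, or 6.32%, 4.57%, 6.03% and 6.29%, a mean of 5.80 ± 0.83%. Each of the 2 led in 2 libraries.

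Trav14-3 had 4.65 ± 0.785%, Trav13-1 4.63 ± 0.657%, Trav14-2 3.60 ± 0.540% and Trav9-4 3.04 ± 0.374%. Trav17 had 2.89 ± 0.595%, Trav10 2.73 ± 0.344%, Trav7-5 2.71 ± 0.594% and Trav14-1 2.52 ± 0.596%. Every neighbouring pair in this order overlapped in range, with 7 to 100 counts a gene and library. Trav14n-3 lay above all of the 10 but Trav4-4-dv10 with no overlap in range, although its lowest share, 5.62%, barely exceeded the highest of Trav14-3. Trav4-4-dv10 lay in the same way above Trav14-2, Trav9-4, Trav17, Trav10, Trav7-5 and Trav14-1. Across libraries, 16 different Trav genes were in the 10 most used of some library and 5 in those of all 4. The 10 Trav genes whose symbol carries the suffix dv took 15.1%, 15.1%, 13.9% and 13.1% of the Trav sum, and 9 of them had a count.

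**Figure D3:**
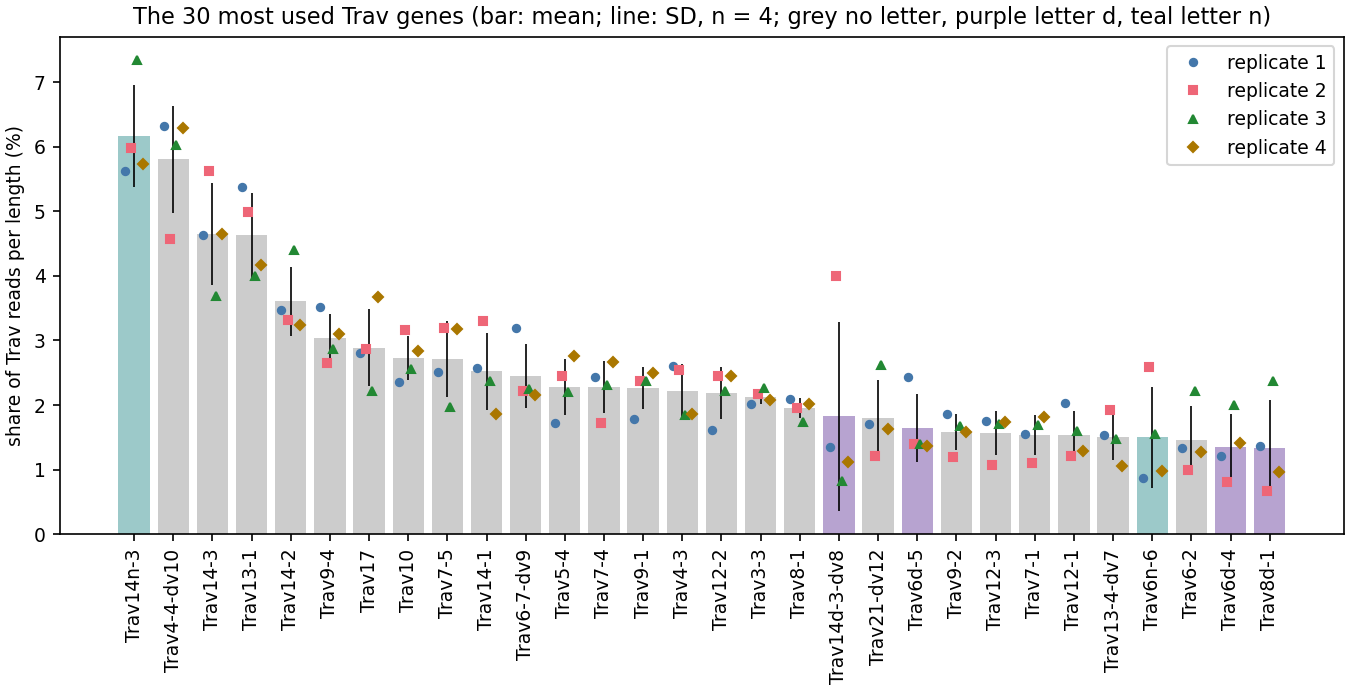
Share of the 30 most used Trav genes in the Trav sum per length (%), in order of the mean, with bars for means over 4 libraries, lines for the SD and points for libraries; colour marks the letter in the symbol. Neighbouring genes overlap in range throughout the first 10, and Trav14d-3-dv8 stands out for 1 high point, replicate 2 at 3.99%.

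The ends of the most used Trav genes and of Trav17 are printed because they carry the same mark as the Trbv ends, a conserved cysteine codon (in capitals), which all 108 Trav genes annotated as V genes have within their last 24 bases. They are from GENCODE release 21 transcripts of chromosome 14, plus strand. Trav17 is shown as the most used Trav gene with no window in another transcript.
Trav14n-3: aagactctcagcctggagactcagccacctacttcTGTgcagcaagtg
Trav4-4-dv10: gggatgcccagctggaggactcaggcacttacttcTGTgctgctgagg
Trav14-3: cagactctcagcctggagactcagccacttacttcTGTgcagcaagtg
Trav13-1: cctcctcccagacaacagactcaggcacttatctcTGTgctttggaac
Trav17: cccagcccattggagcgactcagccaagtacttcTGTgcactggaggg

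The Trav locus of the mm10 reference holds copies of a block of genes, and the symbols mark them with the letter d or n after the subgroup number. The 55 genes with no letter held 3647 counts and 78.2%, 74.9%, 76.2% and 77.7% of the Trav sum per length in replicates 1 to 4. The 34 genes with the letter n held 567 counts and 12.8 ± 1.39%, and the 39 genes with the letter d held 507 counts and 10.5 ± 0.553%. Of the 55 Trav genes at 0, 45 carry a letter. For 38 genes with no letter that have a lettered namesake, the gene with no letter had more counts than each of its copies in 26 cases, and 3044 counts in all against 1074 in the copies. However, 20 genes with the letter d and 18 with the letter n have no window to themselves, against 3 with no letter. Pairs from such genes can go uncounted. The comparisons by letter therefore cannot tell lower use of the copies from pairs left uncounted.

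The counts moved with how much of each gene's sequence is its own. Of the 128 Trav genes, 41 have no 50-base window that is absent from other genes' transcripts, and 39 of these 41 were at 0, with 4 counts among the remaining pair. Of the 40 Trav V genes at 0, 35 have no such window. The exceptions are Trav7d-2, Trav12n-3, Trav9d-4 and Trav15d-1-dv6d-1, with 0.347%, 0.329%, 9.30% and 14.4% of their windows to themselves, and Trav23, which has 100% of them. Trav23 at 0 in all 4 libraries is thus a low level at this depth, whereas a 0 for the 35 genes cannot be told apart from pairs left uncounted. Across the 108 Trav genes annotated as V genes, share and percent of unique windows had a Spearman correlation of 0.76, as a description over genes of the same libraries. In Trbv, by contrast, 32 of 35 genes have at least 90% of their windows to themselves, against 15 of 128 in Trav.

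**Figure D4:**
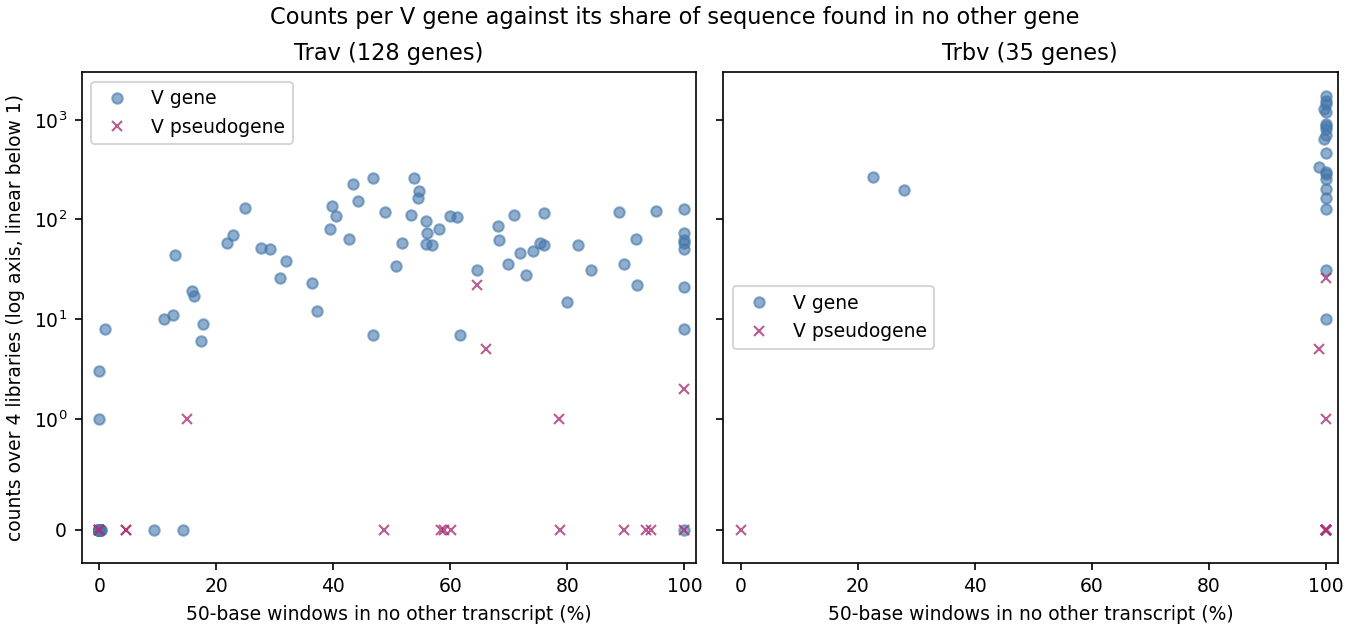
Counts over 4 libraries (log axis, linear below 1) of each Trav gene (left) and Trbv gene (right) against the percent of its 50-base windows found in no other gene's GENCODE release 21 transcript. Points are V genes, crosses pseudogenes; 39 of the 41 Trav genes at 0% unique windows have no count, while 32 of the 35 Trbv genes sit at or near 100%, apart from Trbv4, Trbv5 and the pseudogene Trbv8.

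The Trav14 subgroup, at the top of the order, shows this only in part. It took 18.8 ± 2.43% of the Trav sum, the highest of any Trav subgroup, ahead of Trav6 with 12.7 ± 0.479% and Trav7 with 11.2 ± 0.776%. Only 5 of its 9 genes had a count, and those at 0 (Trav14d-1, Trav14n-1, Trav14d-2 and Trav14n-2) have no window to themselves. Among the 5, Trav14-1 has the highest percent of unique windows, 95.1%, yet it had 123 counts, against 262 for Trav14n-3. Trav14n-3 and Trav14-3 are 97.2% identical over 361 aligned bases, with 10 differences, 6 of which lie in the 90 bases printed here, in capitals, from transcript bases 14 to 103 of Trav14n-3 and 37 to 126 of Trav14-3.
Trav14n-3: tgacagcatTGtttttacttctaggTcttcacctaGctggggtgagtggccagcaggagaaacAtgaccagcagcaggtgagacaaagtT
Trav14-3: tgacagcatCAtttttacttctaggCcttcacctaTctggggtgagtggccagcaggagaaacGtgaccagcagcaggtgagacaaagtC
Trav14n-3 (chromosome 14, 53370077 to 53370575) and Trav14-3 (chromosome 14, 53763173 to 53763694) have 53.8% and 43.3% of their windows to themselves. With counts divided by the number of such windows in place of length, Trav6d-3 led the Trav order on 8 counts over 3 windows, Trav4-4-dv10 came next and Trav14n-3 after it. Among the 15 Trav genes with at least 90% unique windows, Trav17 led with 21.4%.

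Position along the Trav locus moved with the same property. The Trav genes run from 1792 to 243 kb upstream of Trac, and the 42 nearest to Trac held 65.9% of the Trav sum, the 43 in the middle 18.4% and the 43 farthest 15.7%. The median percent of unique windows was 60.1% in the nearest set, 10.99% in the middle and 1.01% in the farthest. Share and distance had a Spearman correlation of -0.41 across the 108 genes, with nearer genes used more, and of 0.12 across the 11 with at least 90% unique windows.

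V genes of invariant receptors were also examined. Trav11, whose product pairs into the receptor of invariant natural killer T cells, and its copy Trav11d had 0 counts in every library. They are identical over 342 bases and neither has a window to itself, so a 0 here cannot be told apart from pairs left uncounted. Their ends show the shared letters, the Trav11 transcript being 1 base longer, with the cysteine codon in capitals.
Trav11: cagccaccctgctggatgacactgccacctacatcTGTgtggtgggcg
Trav11d: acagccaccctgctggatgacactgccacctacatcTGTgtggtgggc
Genes that mark those cells and are not V genes were also looked at: Zbtb16 and Klrb1c had no count, and Slamf6, which conventional T cells also make, stood at 0.972 to 1.19 TPM. Trav1, used by mucosal-associated invariant T cells and unique in all its windows, had 6, 3, 6 and 6 counts, or 0.369%, 0.273%, 1.53% and 0.413% of the Trav sum. The higher share in replicate 3 rests on 6 counts of 406. The 5 lowest Trav V genes by mean share, ties taken by name, were Trav11, Trav11d, Trav12d-1, Trav12d-2 and Trav12d-3, all at 0.

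Evenness of use was described by Pielou evenness, which is 1 when every gene of a chain is used equally, and by the effective number of genes, the number of equally used genes that would give the same Shannon entropy. The effective number was 47.9, 47.2, 46.4 and 48.9 for Trav in replicates 1 to 4 and 16.4, 15.8, 15.3 and 16.5 for Trbv. The inverse Simpson index, which gives more weight to common genes, was 37.5 ± 0.750 for Trav and 13.4 ± 0.573 for Trbv. The 5 most used genes took 24.9 ± 0.696% of the Trav sum and 50.5 ± 1.96% of the Trbv sum. It took 15 Trav genes and 5 Trbv genes to reach 50% of their chain, and 44 and 14 to reach 90%.

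Pielou evenness was 0.798, 0.794, 0.791 and 0.802 for Trav and 0.787, 0.777, 0.767 and 0.788 for Trbv. The difference of Trav minus Trbv was 0.0164 ± 0.00553, positive in 4 of 4 libraries (exact sign-flip p = 0.13, adjusted 0.13). Its direction rests on which genes are counted as possible: without pseudogenes evenness was 0.821 for Trav and 0.893 for Trbv, a difference of -0.0718, and among genes with at least 90% unique windows it was -0.00606. The effective number does not depend on the number of unused genes and was higher for Trav than for Trbv in all 4 libraries over all V genes. It was 8.06 for Trav and 14.7 for Trbv among genes with at least 90% unique windows, of which Trav has 15 and Trbv 32.

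**Figure D5:**
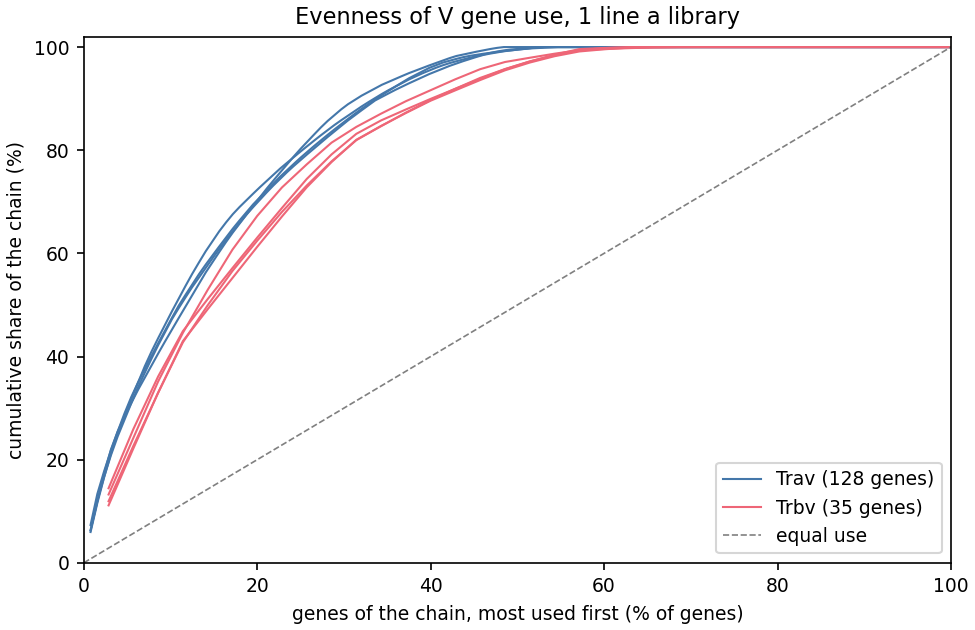
Cumulative share of each chain (%) against the percent of its genes, most used first, with 1 line a library, Trav in blue and Trbv in red; the dashed line is equal use. Each Trav line reaches 100% at 62 to 70 of 128 genes and each Trbv line at 22 to 25 of 35 genes, the numbers of genes with a count.

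The shallowest library had the fewest V genes with a count. Trav genes with a count numbered 70, 68, 62 and 68 in replicates 1 to 4 and Trbv genes 24, 23, 22 and 25. At the depth of the shallowest library (406 Trav and 1196 Trbv counts), the expected numbers were 61.1 to 62.3 Trav genes and 22.0 to 23.1 Trbv genes.

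V gene shares were compared between libraries. Between any pair of libraries the Pearson correlation of shares was 0.954 to 0.991 over the 25 Trbv genes with a count and 0.840 to 0.943 over the 73 Trav genes. These describe genes of the same cell type, and the Trav genes rest on fewer counts. The spread of each gene's counts between libraries was set against counting error with a dispersion index, which is near 1 when counting error alone is present. Its median was 0.948 over 43 Trav genes and 1.32 over 20 Trbv genes with at least 40 counts in all.

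An index above 2 was found for 4 of the 43 Trav genes and 7 of the 20 Trbv genes. Counting error alone also puts some genes above 2, and neither that share nor the share over all genes was computed. At the same relative spread the index grows with counts, and the 35 Trbv genes held 13837 counts against 4721 for the 128 Trav genes. The numbers above 2 therefore cannot be compared between the chains. Trav14d-3-dv8 had 27, 54, 4 and 20 counts in replicates 1 to 4 and the highest index, 14.6, with replicate 2 high at 3.99% of the Trav sum. Trav6n-6 had 14, 28, 6 and 14 counts and an index of 5.39, and was also highest in replicate 2. Trbv1, at 6.89, was highest in replicate 2, and Trbv17, with 49, 33, 9 and 75 counts and an index of 5.24, was highest in replicate 4. These 4 genes, the highest of each chain, were singled out after their values were seen. Only 5 V genes had at least 100 counts in every library (Trbv19, Trbv1, Trbv31, Trbv13-2 and Trbv3), and the coefficient of variation of their shares was 17.0%, 13.5%, 10.5%, 10.1% and 3.97%.

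With 1 group, the fit across all genes can test only whether a gene spreads between the libraries more than genes of its level. In edgeR's quasi-likelihood fit, 1 of 12156 genes tested was called at an adjusted p under 0.05, 0.00823%, and that gene was Xist. Of the 178 members, 57 passed the filter on low counts and 0 were called. An unadjusted p under 0.05 was given to 2 of them, beside 4.9% of all genes tested. The filter required a minimum level in every library, so a gene nearly absent from some libraries was not tested. In edgeR's fit Trav14d-3-dv8 had an adjusted p of 0.894 and Trbc2 an adjusted p of 0.991. With no filter, the fit tested 109 members and called 126 of 21299 genes (0.592%) and 0 members. Without replicate 4 the fit tested 55 members and called 20 of 12145 genes (0.165%) and 0 members. DESeq2's dispersion outliers included 103 of 12156 genes (0.847%) and 0 of 57 members. At shares this low, 0 members called says little about the members. The median coefficient of variation was 8.75% for Trac, Trbc1 and Trbc2, 12.4% for the 20 Trbv genes tested and 21.5% for the 33 Trav genes tested, beside 7.91% for all genes. These coefficients are not adjusted for level, and the Trav genes rest on few counts. The fit also gives the ratio of each gene's spread to the spread fitted for its level. The median ratio was 2.93 for Trac, Trbc1 and Trbc2, 0.985 for Trbv and 0.733 for Trav, beside 0.917 for all genes.

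The partners of the receptor and the enzymes that assemble it were taken from lists chosen with earlier results known. Of 7 receptor partners, 6 reached 1 TPM in every library: the CD3 chains Cd3d, Cd3g and Cd3e and the zeta chain Cd247, which carry the signal into the cell, stood at 310 ± 13.3, 141 ± 19.8, 125 ± 6.66 and 130 ± 5.20 TPM, and the co-receptor Cd4 at 564 ± 30.2 TPM. Cd8a, the alpha chain of the other co-receptor, had 4 counts in all, whereas Cd8b1, its beta chain, stood at 13.4 ± 1.96 TPM with 585 counts. Of 10 genes of the recombination machinery, 7 reached 1 TPM in every library, all of them general DNA repair genes such as Xrcc5 at 79.0 ± 5.27 TPM. The members that work in developing lymphocytes did not: Rag2 had 0 counts, Rag1 3 and Dntt, which adds bases at the joins, 36. None of 5 thymocyte genes reached 1 TPM in every library, but Rag1, Rag2, Dntt and Cd8a among them are the genes already given above. The only gene new to that list, Ptcra, the stand-in alpha chain of thymocytes, had 0 counts. Of 6 B cell genes, 1 reached 1 TPM in every library, Ighm at 12.98 ± 3.33 TPM, while Ms4a1 had 0 counts.

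The joining and diversity segments, which lie outside the choice of genes, were also counted. The 80 J segments held 907, 661, 238 and 829 counts in replicates 1 to 4, with 69 of them at a count or more, and the 4 D segments held 148, 109, 31 and 160.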

How the data were processed

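The 4 libraries of mouse Th17 cells form 1 group. The authors' deposited files hold raw counts, 1 per read pair and gene, with each gene's exonic length. Per the file headers, featureCounts 1.4.6-p4 assigned pairs to exons of GENCODE release 13, reverse-stranded (option 2), with both mates aligned. The headers set no option to count pairs that map to several places or overlap several genes, so such pairs are left out. The build is mm10 per the labels; no source used here gives the aligner's version. Per-library totals ran from 9382661 to 34542693 counts.

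TPM were computed from counts and lengths. Symbols, gene types and transcript sequences came from GENCODE release 21; all 178 members had a sequence. V gene shares are counts per length over the sum of the chain. Windows of 50 bases were called unique when found in no other gene's transcript; a planned genome-wide search was not run because no genome was used here. Contrasts used log2(TPM + 1) and an exact sign-flip permutation test. The spread between libraries was tested with edgeR 4.0.16 (R 4.3.3, with TMM, filterByExpr and an intercept alone), and DESeq2 1.42.0 was an alternative. The fit was also run on simulated data, but no outcome of that run is given, so its power to find a varying gene is not stated.

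The text names all constant genes, the 10 most used and 5 least used V genes of Trav and Trbv, Trdv and Trgv genes with at least 10 counts, Trav11, Trav11d, Trav1, Trbv31, pseudogenes of at least 0.5% of their chain (none reached it), and the 5 V genes with the largest coefficient of variation among those with at least 100 counts in every library. Others are named where a count is small or a value stands apart, and were chosen after their values were seen. The members and lists were chosen with earlier results of these data known. 1 further gene of the cell type check is not reported here.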

Additional observations from a re-analysis of the deposited data

Results flagged for a closer look

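Of 51 values examined over the 4 libraries, 2 had 1 library far from the other 3, by Dixon's ratio at its 95% limit; chance alone flags about 1 in 20. Trav4-4-dv10 stood at 4.57% of the Trav sum in replicate 2, against 6.03% to 6.32% in the other libraries. Trbv19 stood at 8.32% of the Trbv sum in replicate 3, the shallowest library, against 5.87% to 6.21% in the other libraries.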

How the results depend on the processing

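With counts not scaled by length, the 5 most used genes took 23.6% of Trav and 53.0% of Trbv, the Trav inverse Simpson index was 38.5, and the totals were 48.1 CPM for Trav, 141 for Trbv, 0.562 for Trdv, 297 for Trac and 322 for Trbc1 and Trbc2. Without pseudogenes, Pielou evenness was 0.821 for Trav and 0.893 for Trbv, and the difference of Trav minus Trbv turned to -0.0718, since unused genes leave the denominator. With at least 10 counts in every library (14 Trav and 17 Trbv genes), the top gene took 13.6% of Trav, the top 5 took 54.8% of Trav and 52.7% of Trbv, and evenness, effective number and inverse Simpson were 0.961, 12.6 and 11.5 for Trav and 0.935, 14.1 and 12.4 for Trbv. By subgroup, the top took 18.8% of Trav and 22.6% of Trbv, the top 5 took 60.1% and 61.5%, and the same 3 measures were 0.814, 12.9 and 10.3 for Trav and 0.732, 12.4 and 9.36 for Trbv.

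The settings with unique windows were chosen after seeing the data. As divisor, they gave a top 5 share of 26.6% of Trav and 48.1% of Trbv, and the 3 measures were 0.845, 43.6 and 31.6 for Trav and 0.797, 16.6 and 14.4 for Trbv. Among genes with at least 90% unique windows, the top gene took 21.4% and the top 5 took 73.7% of Trav, the measures were 0.770, 8.06 and 7.02 for Trav, and effective number and inverse Simpson were 14.7 and 12.5 for Trbv. The difference in evenness was then -0.00606 (exact sign-flip p = 0.875), turning on fewer genes. Genes that vary numbered 126 with no filter, 5 with a mean count of at least 50, 103 by DESeq2, and 1 to 20 with a replicate left out (20 without replicate 4), against 1; the cause was not tested. Members among them numbered 0 in every setting, where the share called over all genes was at most 0.847%. Of 422 values under an alternative, 347 kept their direction and call or stayed within the spread, 73 moved and 2 reversed. Leaving out 1 library cannot shift a mean over the 4 by as much as its SD. Such means could therefore only stay within the spread, and the 347 are no measure of stability. No paired analysis was possible because there is 1 group. The planned genome-wide windows and recombination signals were not run, and replicate 3, with 406 Trav counts, limits the order of Trav genes.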
